A study of Oryza sativa with 16 samples.

Results

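Rice carries a family of genes named OsC3H, whose proteins hold zinc fingers of the CCCH type, and 44 of them were measured here across water and 6 plant hormones. Members were taken by name, as every gene of the RefSeq table with a symbol or synonym of C3H or OsC3H and a number, which gave 53 genes. Of these, 50 had a probe set that stood for 1 gene, and 44 had a log2 value above 5 in at least 2 of the 16 arrays, out of 14940 genes measured above that floor. Each gene was read through 1 probe set, the one with the highest mean over the arrays. The study grew seedlings of rice (Oryza sativa subspecies indica, variety IR64) in hydroponic culture for 7 days under 14 h of light and 10 h of dark, then kept them for 3 h in water or in 1 hormone. IAA (an auxin, indole-3-acetic acid) and BAP (benzyl aminopurine, a cytokinin) were each used at 50 µM. ABA (abscisic acid), ACC (1-aminocyclopropane-1-carboxylic acid, from which plants make ethylene), SA (salicylic acid) and JA (jasmonic acid) were given at 100 µM. Water controls formed 2 sets, control1 and control2, and each of the 8 groups had 2 biological replicates on the Affymetrix rice array.

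In a CCCH zinc finger, cysteines and a histidine hold a zinc ion and shape a fold that in many members binds RNA. Proteins of this class in plants and animals act in messenger RNA decay, splicing and polyadenylation, and some plant members act in the nucleus on transcription. Several plant CCCH genes are known from responses to drought, salt and ABA, the hormone that accumulates as tissue dries, and others from senescence, flowering and defence.

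The 16 arrays had medians between 2.94 and 3.09 on the log2 scale, and replicates of a group correlated across rice probe sets with r between 0.997 and 0.998. The 5' minus 3' difference of the poly-A spike-in transcripts lay between -1.56 and -1.22 log2 units on the 6 arrays of control1, IAA and BAP. It lay between -1.17 and -0.63 on the 10 others. SA (-0.99 and -1.17) and JA (-0.95 and -1.15) lay between control2 (-0.69 and -0.63) and control1 (-1.31 and -1.34). The control sets thus differed technically, and the labels tied no hormone to either. Each change below is the treated mean (n = 2) minus the mean of the 4 controls, ± SE, and the main ones are followed by the change from control1 alone and from control2 alone. The adjusted p of each comes from limma, corrected by the Benjamini-Hochberg method over 24100 tested probe sets, and a change passed under 0.05. The 4 controls formed 1 group there, so a difference between the control sets entered the spread and could keep a change from passing. Whole seedlings were extracted, so fewer cells of a type and less RNA per cell cannot be told apart.

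ABA moved the most members. Under ABA 11 of 44 members rose and 7 fell, and 26 did not pass, so that 40.9% of members passed where 48.1% of all tested probe sets did. For rises the shares were 25% of members and 21.2% of probe sets, and for falls 15.9% and 26.9%. The median change of the members was 0.1 log2 units and that of all probe sets -0.07. OsC3H10 and OsC3H43 had all 4 controls at or below the floor. OsC3H10 passed it through the ABA arrays alone, and OsC3H43 through them and JA replicate 1, so neither would have been tested without ABA. Without both members, 9 of 42 rose and 7 fell. Without ABA replicate 1, and likewise without ABA replicate 2, 11 members passed in place of 18, and the share of all probe sets that passed fell as well, from 48.1% to 36.9% and 32.4%. A change of at least 2-fold passed for 8 members and for 21.7% of probe sets.

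The labelled tissue, whole seedlings, was checked with 3 shoot and 8 root genes, and both lists had mean levels above the floor on every array, with LSI2 alone under it on 1 array, ABA replicate 2. Under ABA 2 of the 3 shoot genes fell and 6 of the 8 root genes fell, and 0 rose. The mean log2 level of the root list was 11.53 to 11.72 in the controls and 9.89 to 10.14 in ABA, and that of the shoot list was 14.83 to 15.2 and 14.23 to 14.36. The silicon transporter gene LSI2, a root marker, fell most, by -6.79 ± 0.56 (adjusted p = 1.54e-06), and the others that fell did so by -0.31 to -2.35. Under BAP 4 of the 8 root genes fell, under SA and JA 2 each and under IAA 1. The part of these shifts in the changes of OsC3H genes was not tested.

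Under JA 3 of 44 members fell and 0 rose, beside 5.96% of all probe sets that passed, 2.87% with a fall and 3.09% with a rise. Under IAA 2 fell and 0 rose (background 4.14%, with 1.74% falls and 2.4% rises). Under SA 1 fell and 0 rose (background 9.2%, with 4.67% falls and 4.53% rises). The share of members that passed lay near the background for IAA and JA. It was 2.27% beside 9.2% for SA and 40.9% beside 48.1% for ABA, and no test of these shares was made. Members are 1 probe set per gene, the one with the highest mean. The background holds every tested probe set, with further ones of a gene and ones without a gene, so the shares are not of like sets. BAP and ACC gave 0 calls among the members by limma, and their backgrounds were 1.29% and 0.614%. With the control sets as separate groups BAP gave 2 calls and ACC 3 (backgrounds 7.29% and 7.69%). Against the 4 controls as 1 group, 5 members each had an unadjusted p under 0.05, a limit for which no background was counted. In all 25 members passed for no hormone, 15 for 1, 3 for 2 and 1 for 3. The same split was not made over all probe sets, so these counts have no background.

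**Figure D1:**
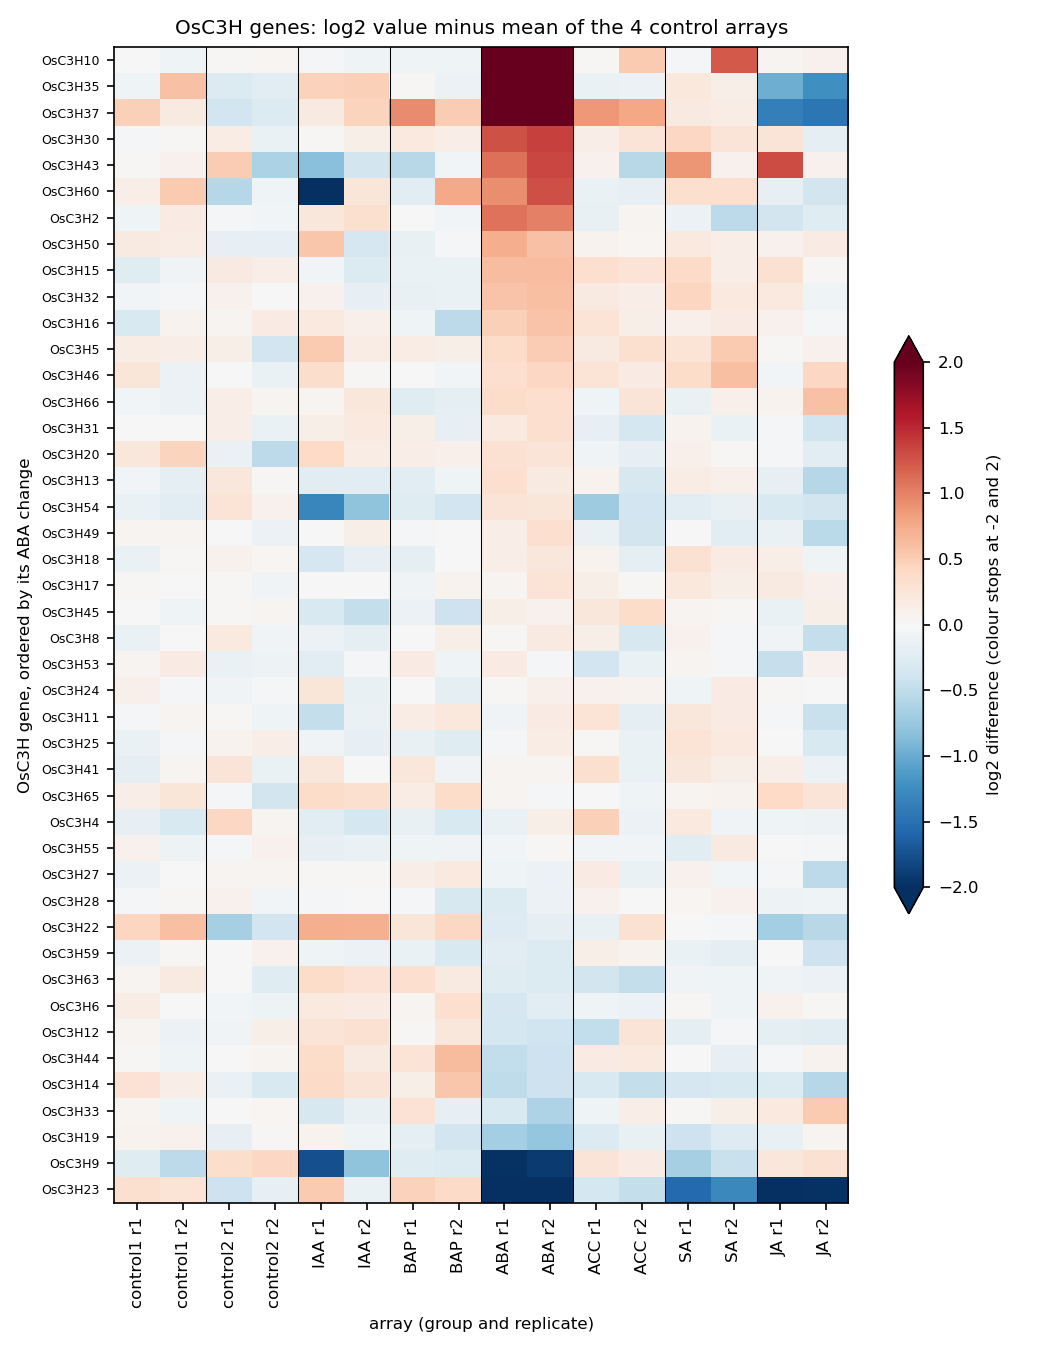
Log2 value of each of the 44 OsC3H genes (rows, ordered by their ABA change) on each of the 16 arrays (columns, by group and replicate), minus that gene's mean over the 4 control arrays. Both ABA columns hold the strongest colours at the top (OsC3H10, OsC3H35, OsC3H37) and bottom (OsC3H9, OsC3H23), and the JA columns are blue for OsC3H35, OsC3H37 and OsC3H23.

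OsC3H10, whose overexpression is known to raise drought tolerance in rice, went from the bottom of the scale to a high value under ABA. It read 3.02 and 2.95 in control1, 3.06 and 3.07 in control2, 3.00 and 2.94 in IAA, 2.94 and 2.95 in BAP, 3.06 and 3.56 in ACC, 3.01 and 4.26 in SA, 3.08 and 3.12 in JA, and 10.21 and 10.13 in ABA. All 14 arrays without ABA lay under the floor of 5, and both ABA arrays lay far above every one of them. The rise was 7.14 ± 0.27 log2 units (adjusted p = 1.55e-09), 7.18 against control1 and 7.1 against control2, and its size depends on how the lowest values were background-corrected. OsC3H10 passed the floor through the ABA arrays alone, so its adjusted p is not separate support for the rise. One SA array, at 4.26, was the highest without ABA, and the SA change of 0.61 ± 0.27 did not pass (adjusted p = 0.177).

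OsC3H35 and OsC3H37 both rose under ABA and both fell under JA. OsC3H35 read 10.54 and 11.21 in control1, 10.35 and 10.39 in control2, 11.08 and 11.1 in IAA, 10.64 and 10.5 in BAP, 10.49 and 10.51 in ACC, 10.83 and 10.73 in SA, 13.89 and 13.77 in ABA, and 9.65 and 9.4 in JA. Both ABA arrays lay above and both JA arrays below all others, and the remaining groups overlapped the controls. Its ABA rise was 3.21 ± 0.19 log2 units (adjusted p = 1.21e-07, control1 2.96, control2 3.46). Its JA fall was -1.1 ± 0.19 (adjusted p = 0.00637, control1 -1.35, control2 -0.85). OsC3H35 had 2 further probe sets, which rose under ABA by 3.64 and 3.34 (adjusted p = 4.03e-08 and 5.45e-09). Under JA these read -0.45 and -0.51 and did not pass (adjusted p = 0.214 and 0.059), so the JA call rests on the probe set with the highest mean. Without JA replicate 2 its JA change was -0.97 and did not pass (adjusted p = 0.129).

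OsC3H37 read 10.72 and 10.43 in control1, 9.86 and 9.98 in control2, 10.43 and 10.7 in IAA, 11.19 and 10.75 in BAP, 11.11 and 11.02 in ACC, 10.43 and 10.4 in SA, 13.11 and 13.36 in ABA, and 8.89 and 8.8 in JA. ABA again stood above and JA below every other array. The ABA rise was 2.99 ± 0.21 log2 units (adjusted p = 4.75e-07, control1 2.66, control2 3.31), and the JA fall was -1.4 ± 0.21 (adjusted p = 0.00293, control1 -1.73, control2 -1.07), which without JA replicate 2 did not pass (adjusted p = 0.0569). Both ACC arrays and both BAP arrays lay above all 4 controls, but the changes of 0.81 ± 0.21 under ACC and 0.72 ± 0.21 under BAP did not pass (adjusted p = 0.115 and 0.153). Against each control set alone the ACC change did pass, at 0.49 from control1 and 1.14 from control2 (adjusted p = 0.0433 and 0.014). OsC3H37 has 1 probe set on the array.

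Smaller ABA rises of at least 2-fold were those of OsC3H30, OsC3H2 and OsC3H43. OsC3H30 read 8.22, 8.27, 8.4 and 8.11 in the 4 controls and 9.52 and 9.61 in ABA, and the other hormones ran from 8.07 to 8.67. The ABA arrays lay clear of all others, with a rise of 1.32 ± 0.13 (adjusted p = 8.88e-06, control1 1.32, control2 1.31). OsC3H2, also named OsDOS, encodes a nuclear CCCH protein that in rice is known to delay leaf senescence. It read 12.17, 12.41, 12.21 and 12.19 in the controls, 12.47 and 12.57 in IAA, 12.24 and 12.2 in BAP, 13.34 and 13.26 in ABA, 12.1 and 12.3 in ACC, 12.14 and 11.73 in SA, and 11.88 and 12.01 in JA. Only the ABA arrays exceeded 13 among the 16, and the rise was 1.05 ± 0.12 (adjusted p = 1.85e-05, control1 1.01, control2 1.1). A further OsC3H2 probe set rose under ABA by 1.67 (adjusted p = 0.00139). OsC3H43 stayed close to the floor, at 4.12, 4.18, 4.59 and 3.46 in the controls and 5.19 and 5.42 in ABA. Besides both ABA arrays it passed the floor on JA replicate 1 alone, so its adjusted p is not separate support for its ABA rise. Its rise of 1.22 ± 0.39 (adjusted p = 0.0213) was lost without either ABA array, and JA replicate 1 reached 5.39 while JA replicate 2 read 4.18.

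OsC3H23 fell under ABA, JA and SA, and was the 1 member that passed for 3 hormones. It read 7.12 and 7.07 in control1, 6.39 and 6.63 in control2, 7.32 and 6.66 in IAA, 7.26 and 7.18 in BAP, 6.45 and 6.32 in ACC, 5.25 and 5.51 in SA, 4.52 and 4.83 in JA, and 3.54 and 3.33 in ABA. SA, JA and ABA arrays all lay below every control, in that descending order and without overlap. The falls were -3.37 ± 0.24 under ABA (adjusted p = 4.27e-07, control1 -3.66, control2 -3.07) and -2.13 ± 0.24 under JA (adjusted p = 0.000407, control1 -2.42, control2 -1.83). Under SA the fall was -1.42 ± 0.24 (adjusted p = 0.00353, control1 -1.71, control2 -1.13), and without SA replicate 1 it did not pass (adjusted p = 0.0743). The 1 member that passed for SA in that fit was OsC3H10, higher on the strength of SA replicate 2 at 4.26, below the floor. Values under ABA and JA were below the floor, so those sizes depend on the lowest values. These 3 changes share the same 4 control arrays.

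OsC3H9 fell under ABA and IAA. It read 8.69 and 8.41 in control1, 9.28 and 9.34 in control2, 7.17 and 8.12 in IAA, 8.68 and 8.65 in BAP, 6.96 and 7.01 in ABA, 9.18 and 9.1 in ACC, 8.26 and 8.48 in SA, and 9.15 and 9.24 in JA. The ABA arrays agreed closely and lay below all others, whereas the IAA arrays lay apart. The ABA fall was -1.95 ± 0.28 (adjusted p = 0.000118, control1 -1.57, control2 -2.33). The IAA fall of -1.28 ± 0.28 (adjusted p = 0.0248) was -1.66 against control2 and -0.9 against control1, the set that shares its spike-in reading, where it did not pass (adjusted p = 0.0743).

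**Figure D2:**
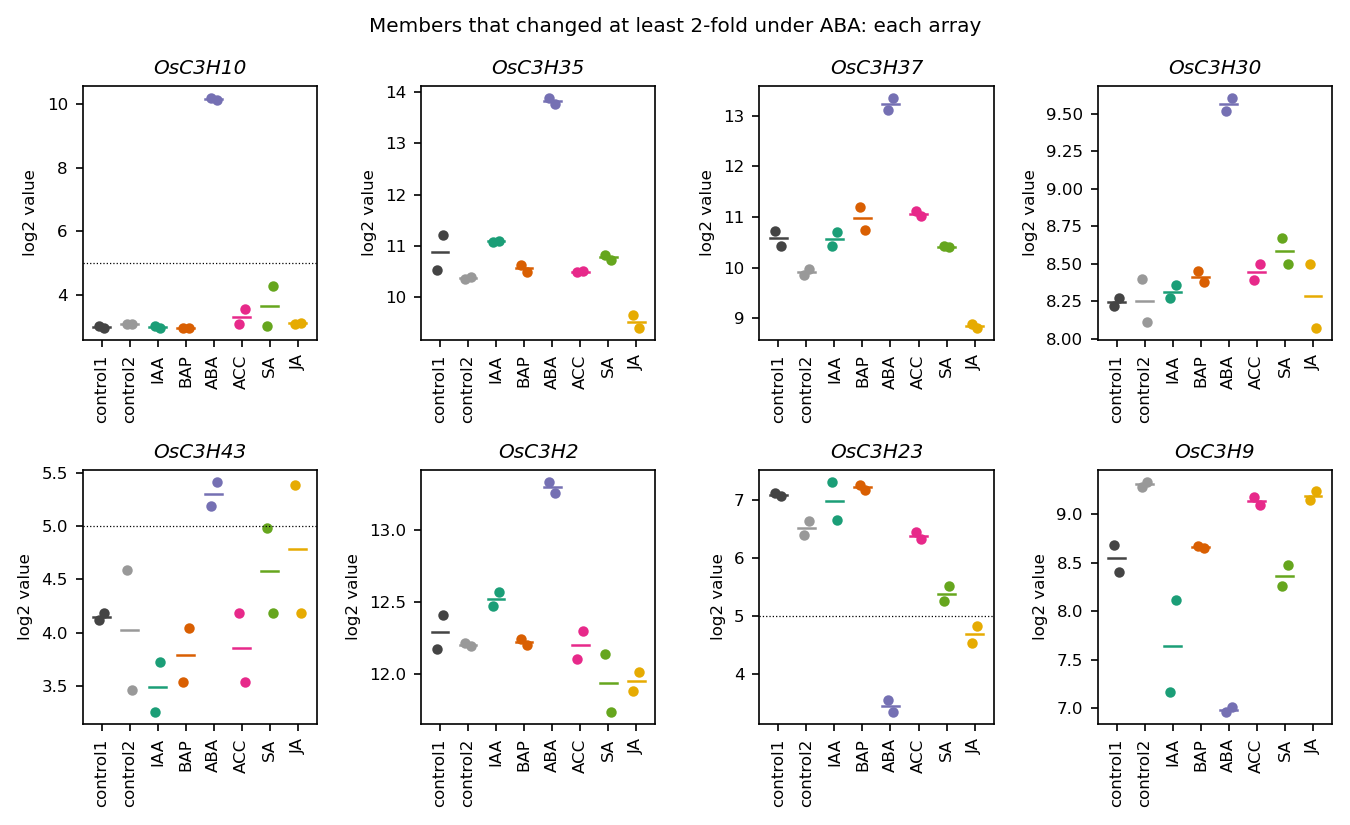
Log2 value on every array (points) and group mean (bar) for the 8 OsC3H genes that changed at least 2-fold under ABA, by group of 2 arrays, with the floor of 5 as a dotted line where it falls in range. Scales differ between panels. OsC3H10 leaves the floor under ABA alone, at 10.21 and 10.13, and OsC3H35 and OsC3H37 are highest under ABA and lowest under JA.

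A further 10 members changed by less than 2-fold under ABA. Of these, 5 rose by 0.44 to 0.65 log2 units: OsC3H50 (0.65), OsC3H15 (0.61), OsC3H32 (0.58), OsC3H16 (0.53) and OsC3H5 (0.44). The other 5 fell, OsC3H19 (-0.72), OsC3H14 (-0.46), OsC3H33 (-0.46), OsC3H44 (-0.45) and OsC3H6 (-0.28). OsC3H19 read 9.91, 9.93, 9.67 and 9.86 in the controls and 9.16 and 9.07 in ABA, and fell with an adjusted p of 0.000281 (control1 -0.8, control2 -0.65). OsC3H32 read 10.99, 11.01, 11.13 and 11.04 in the controls and 11.61 and 11.64 in ABA (adjusted p = 0.000748). Control1 alone gave 10 rises and 9 falls under ABA (background 52.9%), and control2 alone 12 and 5 (background 49.4%). Against each control set alone, 13 of the 18 ABA calls passed with both sets in the same direction and 5 with 1 set, and all 18 kept their direction with both. The 5 were OsC3H5 and OsC3H50, which did not pass against control1 (0.3 and 0.49), and OsC3H6, OsC3H14 and OsC3H16, which did not pass against control2 (-0.2, -0.25 and 0.42). All 18 were picked by their change from both sets together on the same ABA arrays, so the kept direction is not separate support. Control2 is the set that shares the spike-in reading of the ABA arrays. Second probe sets did not repeat the calls of OsC3H5 (0.15, adjusted p = 0.37) and OsC3H33 (0.04, adjusted p = 0.872).

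**Figure D3:**
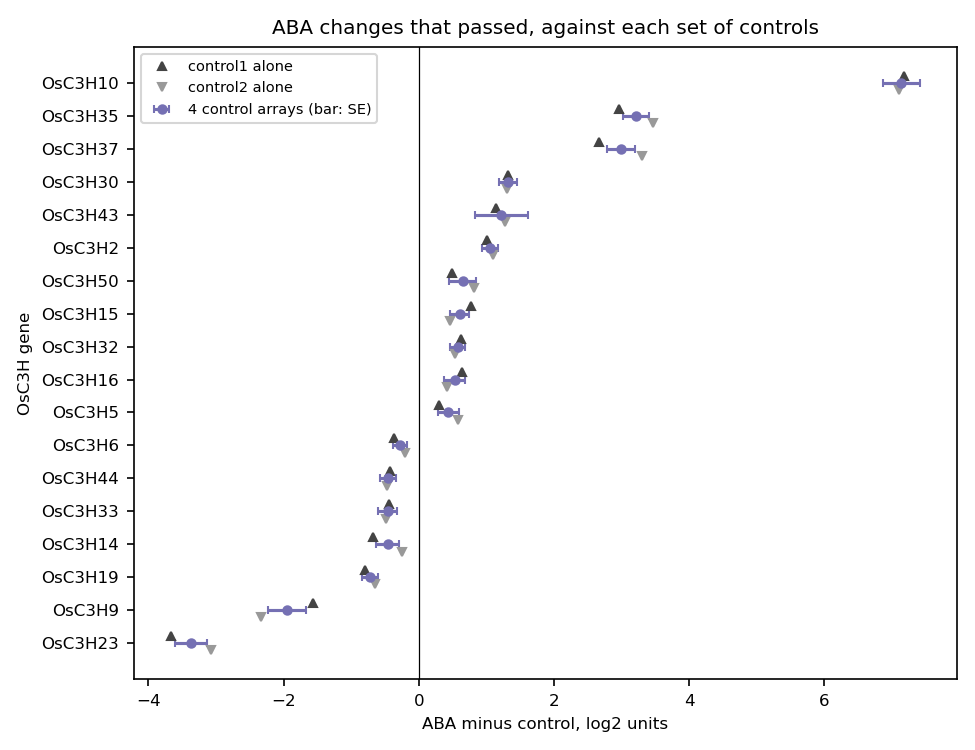
ABA minus control in log2 units for the 18 OsC3H genes that passed, against all 4 control arrays (circles, bars are the SE) and against control1 alone or control2 alone (triangles). All 18 keep their side of 0 with either set, from OsC3H10 at 7.14 to OsC3H23 at -3.37. They were picked by the change from both sets together, so this is not separate support.

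OsC3H54 was the other member that fell under IAA. It read 8.78 and 8.69 in control1, 9.18 and 8.99 in control2, 7.6 and 8.11 in IAA, 8.66 and 8.52 in BAP, 9.16 and 9.15 in ABA, 8.2 and 8.53 in ACC, 8.68 and 8.76 in SA, and 8.61 and 8.55 in JA. Both IAA arrays lay below the other 14. The fall was -1.05 ± 0.17 (adjusted p = 0.00505), and it passed against control1 (-0.88, adjusted p = 0.0193) and control2 (-1.23, adjusted p = 0.00039). Without IAA replicate 1 it was -0.8 and did not pass (adjusted p = 0.0894), nor did OsC3H9, so that 0 members then passed for IAA. Without control1 replicate 2 the count was 4 (background 9.56%). Without control2 replicate 1, and likewise without control2 replicate 2, it was 1, OsC3H54 (backgrounds 2.28% and 2.59%). A second probe set of OsC3H11 fell under IAA by -0.6 (adjusted p = 0.0116) where the one with the higher mean read -0.3 (adjusted p = 0.27).

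Under BAP the member with the smallest adjusted p was OsC3H44, at 0.45 (adjusted p = 0.0977), and under ACC it was OsC3H37. Changes lay within 0.5 log2 units for 43 of 44 members under BAP, 42 under ACC and 30 under ABA. No such count was made over all probe sets, so these have no background. Leaving out control1 replicate 1 gave 1 call under BAP (background 1.23%), and leaving out control2 replicate 2 gave 1 under ACC (background 1.21%). The member calls under BAP and ACC depended on the control set. BAP gave 8 rises and 0 falls against control2 (background 24.0%) and 0 calls against control1 (background 1.09%). Against control1, 3 members had an unadjusted p under 0.05, a limit for which no background was counted. ACC gave 2 rises and 4 falls against control1 (background 23.9%) and 1 rise, OsC3H37, against control2 (background 0.34%). The 8 rises under BAP against control2 were those of OsC3H14, OsC3H20, OsC3H22, OsC3H23, OsC3H37, OsC3H44, OsC3H63 and OsC3H65. For IAA, control1 gave 1 fall, OsC3H54 (background 2.37%), and control2 7 rises and 3 falls (background 31.6%). For SA, control1 gave 2 rises and 4 falls (background 28.7%) and control2 2 falls, OsC3H9 and OsC3H23 (background 9.65%). For JA, control1 gave 6 falls (background 23.9%), and control2 3 falls and 1 rise, OsC3H65 (background 6.8%). OsC3H23 fell under SA and JA with either set.

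The control sets themselves differed in 4 members, 1 higher and 3 lower in control2, where 21.1% of all tested probe sets differed (9.2% higher, 11.9% lower). OsC3H22 was lower in control2 by -1.03 ± 0.17 (adjusted p = 0.00211) and OsC3H20 by -0.67 ± 0.14 (adjusted p = 0.00671). OsC3H37 was lower by -0.65 ± 0.16 (adjusted p = 0.0135) and OsC3H9 higher by 0.76 ± 0.23 (adjusted p = 0.0384). OsC3H20 is Ehd4, a rice gene that promotes flowering, and it read 10.64 and 10.85 in control1, 10.27 and 9.88 in control2, and between 10.18 and 10.81 in the hormone arrays. Its ABA change was -0.07 against control1 and 0.61 against control2 (adjusted p = 0.00357), so no direction is given for it. OsC3H37 and OsC3H9 lost this call without single control arrays, and OsC3H20 without control1 replicate 2 or control2 replicate 2, so that 2 members differed without the former and 1 without the latter.

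OsC3H22 and OsC3H23 lie side by side on chromosome 3 with 0 genes between them in the RefSeq assembly, and their values under ABA were unlike. OsC3H22 read 7.6 and 7.77 in control1, 6.51 and 6.79 in control2, 7.9 and 7.88 in IAA, 7.41 and 7.58 in BAP, 6.91 and 6.97 in ABA, 7.02 and 7.48 in ACC, 7.17 and 7.14 in SA, and 6.49 and 6.61 in JA. Its ABA arrays lay between the control sets, at -0.23 ± 0.3 against all 4 (adjusted p = 0.56), beside -3.37 for OsC3H23. Under JA it read -0.62 ± 0.3 (adjusted p = 0.257), with -1.14 against control1 (adjusted p = 0.000881) and -0.11 against control2 (adjusted p = 0.785). OsC3H4, OsC3H5 and OsC3H6 also lie near each other, on chromosome 1, with 3 genes between OsC3H4 and OsC3H5 and 1 between OsC3H5 and OsC3H6, and under ABA they read -0.01, 0.44 and -0.28.

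**Figure D4:**
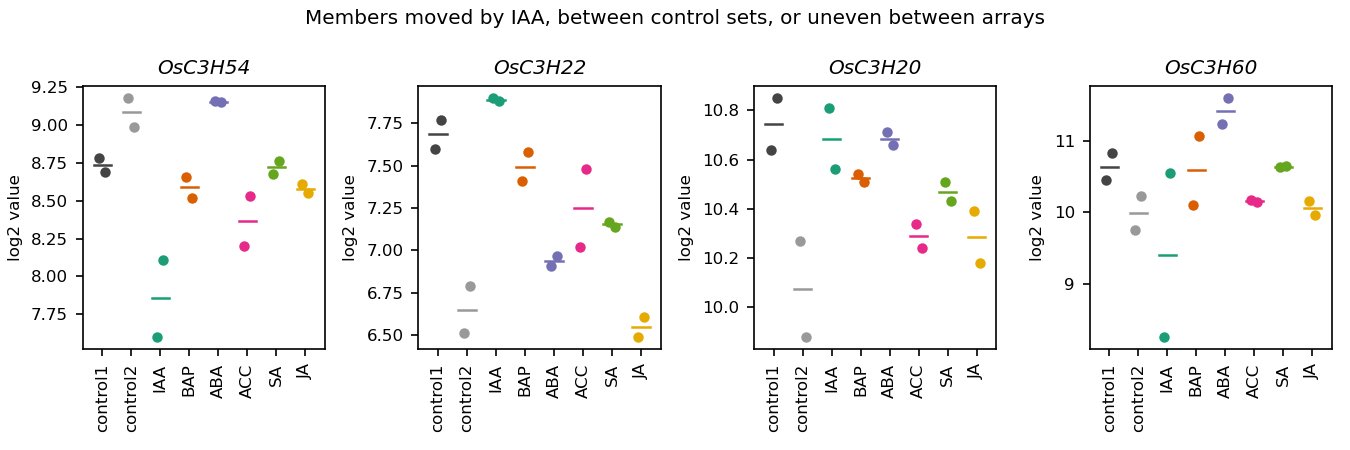
Log2 value on every array (points) and group mean (bar) for OsC3H54, OsC3H22, OsC3H20 and OsC3H60, by group of 2 arrays, each panel on its own scale. OsC3H54 is lowest under IAA, OsC3H22 and OsC3H20 separate control1 from control2, and the IAA arrays of OsC3H60 lie far apart, at 8.25 and 10.56.

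OsC3H60, OsC3H46, OsC3H12 and OsC3H41, also named for a known role or family, did not pass for a hormone against the 4 controls. OsC3H60 is U2AF35A, the small subunit of the splicing factor that recognises the end of an intron. It read 10.45, 10.84, 9.75 and 10.23 in the controls, 8.25 and 10.56 in IAA, 10.11 and 11.08 in BAP, and 11.25 and 11.61 in ABA. Both ABA arrays lay above all controls, but the spread elsewhere gave 1.11 ± 0.5 (adjusted p = 0.0839), with 0.78 against control1 and 1.44 against control2 (adjusted p = 0.25 and 0.0445). OsC3H46 is LIC, which acts against brassinosteroid signalling and sets leaf angle in rice. Its largest changes were 0.49 ± 0.17 under SA (adjusted p = 0.0941) and 0.38 ± 0.17 under ABA (adjusted p = 0.0848). OsC3H12, known for resistance of rice to bacterial blight, had its largest change under ABA, -0.37 ± 0.16 (adjusted p = 0.077), and -0.21 ± 0.16 under JA (adjusted p = 0.51). OsC3H41 is MKRN, a makorin, of a family with a RING finger beside the CCCH fingers, and its 6 changes ran from 0.01 under JA to 0.17 under SA.

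Across all 16 arrays 28 members spanned less than 1 log2 unit, 9 between 1 and 2, and 7 more than 2. Spans were not counted over all probe sets, so these counts have no background. The narrowest spans were those of OsC3H17, from 10.63 to 10.97, OsC3H55, from 8.43 to 8.82, OsC3H28, from 9.07 to 9.47, and OsC3H24, from 11.25 to 11.68. The widest were those of OsC3H10, OsC3H37, OsC3H35, OsC3H23, OsC3H60, OsC3H9 and OsC3H43. The 6 genes left out by the floor were OsC3H1, OsC3H3, OsC3H34, OsC3H39, OsC3H40 and OsC3H47. Closest below it were OsC3H39, which reached 4.26, and OsC3H3, which reached 4.23 in ABA replicate 2 and 3.07 in ABA replicate 1. Just above it were OsC3H10, above 5 on 2 arrays, and OsC3H43, on 3. OsC3H38 (U2AF35B), OsC3H56 and OsC3H67 had no probe set assigned to them alone.

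Each hormone was also set against the mean of the other 5, a comparison without the control arrays. ABA then gave 15 higher and 7 lower members (backgrounds 21.8% and 27.8%), or 13 and 7 of 42 without OsC3H10 and OsC3H43. All 8 members that changed at least 2-fold under ABA passed in the same direction. These were OsC3H10 (6.98 ± 0.24, adjusted p = 5.34e-10), OsC3H35 (3.34 ± 0.17, adjusted p = 2.52e-08), OsC3H37 (2.86 ± 0.19, adjusted p = 2.15e-07), OsC3H43 (1.2), OsC3H30 (1.16), OsC3H2 (1.14), OsC3H9 (-1.62) and OsC3H23 (-2.7). They were picked by their change on the same ABA arrays, so their agreement is not separate support. OsC3H10 passed the floor only through those arrays, and OsC3H43 through them and JA replicate 1. JA gave 2 higher, OsC3H9 and OsC3H33, and 5 lower (backgrounds 5.68% and 7.05%), with OsC3H37 at -2.4 ± 0.19 (adjusted p = 1.65e-05), OsC3H35 at -1.83 ± 0.17 (adjusted p = 5.77e-05) and OsC3H23 at -1.21 ± 0.21 (adjusted p = 0.00309). The other 5 hormones include ABA, so its rises in OsC3H35 and OsC3H37 enlarge these JA differences. For the same reason OsC3H10 was lower in IAA, BAP, ACC and JA than in the mean of the others, by -1.25 to -1.69, with values between 2.94 and 3.56 in those 4 groups. OsC3H23 was higher than the mean of the others in IAA, BAP and ACC, by 0.85 to 1.85, where that mean holds its low values under ABA, JA and SA. IAA gave 5 higher and 6 lower (backgrounds 14.4% and 11.0%), with OsC3H54 at -0.82 ± 0.15 (adjusted p = 0.00398) and OsC3H9 at -0.82 ± 0.25 (adjusted p = 0.0309). BAP gave 4 higher and 4 lower (backgrounds 11.0% and 10.7%), ACC 3 and 3 (backgrounds 5.1% and 6.74%) and SA 0 and 1 (backgrounds 3.19% and 2.67%), the last being OsC3H2 at -0.5. Outside OsC3H10 and OsC3H23, the BAP calls were OsC3H14, OsC3H44 and OsC3H63 higher and OsC3H16, OsC3H32 and OsC3H35 lower, and the ACC calls OsC3H9 and OsC3H45 higher and OsC3H35 and OsC3H63 lower. All of these means hold the ABA arrays, and against the 4 controls 0 members passed under BAP or ACC. OsC3H35, which read 13.89 and 13.77 under ABA, lay at -0.05 from the controls under BAP and -0.13 under ACC (adjusted p = 0.929 and 0.798). The fall of OsC3H23 under SA did not pass in this comparison (-0.36, adjusted p = 0.355).

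Of the genes of messenger RNA turnover listed beside the family, 5 had names in the annotation and were measured, the Argonautes AGO1A, AGO1B, AGO1C and AGO1D, which carry small RNAs to their targets, and PAB1, a poly(A)-binding protein. AGO1A fell under ABA by -0.53 ± 0.13 (adjusted p = 0.00559), and 4 of 5 did not pass for ABA, where 48.1% of all tested probe sets passed. Under the other 5 hormones the smallest adjusted p was 0.0958, for AGO1A under JA (-0.41).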

How the data were processed

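The authors deposited 1 log2 value per probe set and array. Per the submitters' processing notes these were made by GCRMA, with no version or setting stated in the labels, and the log base was taken from the values. GCRMA subtracts background, normalizes the arrays together and summarises each probe set, so changes near the bottom of the scale depend on it. Per the labels' protocols 5 µg of total RNA was labelled with biotin. Of 57381 probe sets, 123 Affymetrix controls and 64 reporters were left out. Of the 57194 others, 22436 had 1 gene in the platform annotation, 95 several and 34663 none. Genes were named through RefSeq (assembly ASM3414082v1), whose coordinates were used only for neighbours.

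A linear model (limma 3.58.1, R 4.3.3, eBayes with intensity trend) was fitted to the 24100 probe sets above log2 5 on at least 2 arrays, with the 4 controls as 1 group (9 residual degrees of freedom), or as 2 groups for single control sets (8). Members and lists were chosen with earlier results of these data known. Named genes were OsC3H9, OsC3H10, OsC3H23, up to 8 members per hormone that passed with both treated arrays outside the control range, members that differed between control sets, those with a known role, and the narrowest spans. The other genes named were chosen after their values were seen. Levels of different genes were not ranked, since probe sets differ. Protein and promoter sequences were not used here. The number of arrays limits the precision.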

Additional observations from a re-analysis of the deposited data

Results flagged for a closer look

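Of 44 members checked, 2 had a control array apart from the other 3 by a Dixon test, about the number that chance gives: OsC3H2, where control1 replicate 2 read 12.41, and OsC3H5, where control2 replicate 2 read 8.6. In 13 cases a hormone's change in a named member differed from the mean of the other 5 hormones in the limma test. These members had passed against the controls on the same hormone arrays, so the 13 differences are not separate support. Under ABA these differences were 6.98 for OsC3H10, 3.34 for OsC3H35, 2.86 for OsC3H37, 1.2 for OsC3H43, 1.16 for OsC3H30, 1.14 for OsC3H2, -1.62 for OsC3H9 and -2.7 for OsC3H23. Under JA they were -2.4 for OsC3H37, -1.83 for OsC3H35 and -1.21 for OsC3H23. Under IAA they were -0.82 for OsC3H9 and -0.82 for OsC3H54.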

How the results depend on the processing

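All alternatives are counts of the 44 members called. Against control1 alone they were 1 for IAA and 6 each for ACC, SA and JA, and against control2 alone 10 for IAA, 8 for BAP, 1 for ACC and 2 for SA. With the control sets as separate groups they were 5 for IAA, 2 for BAP and 3 for ACC, where 16%, 7.29% and 7.69% of all probe sets passed. With array weights ACC gave 2, SA 9, JA 6, the control sets 7, and SA against the other hormones 4, where 15.1%, 35.7%, 21.4%, 29.3% and 15.7% of all probe sets passed. Fitting the treated and control arrays alone gave 0 for IAA, 0 for SA and 1 for JA. There 0.73%, 2.18% and 1.42% of all probe sets passed. Without a filter IAA gave 1, and against the other hormones IAA gave 6 and ACC 2. There 1.16%, 7.56% and 3.5% of all probe sets passed. Median centring and the fit without intensity trend each gave 2 for SA against the other hormones, where 4.96% and 5.66% passed. At least 2-fold left 8 for ABA and 1 for the control sets, where 21.7% and 7.26% of all probe sets passed. Against the other hormones it left 9 for ABA, 2 for IAA, 2 for BAP, 1 for ACC and 0 for SA. There 19.7%, 6.54%, 5.98%, 4.53% and 2.58% of all probe sets passed. Leaving out each array in turn gave 0 to 4 for IAA, 0 to 1 for BAP, 11 to 18 for ABA, 0 to 1 for ACC, 1 to 1 for SA, 1 to 4 for JA and 1 to 3 for the control sets. Without SA replicate 1 the single SA call was a rise of OsC3H10 in place of the fall of OsC3H23. Against the other hormones it gave 2 to 6 for IAA, 2 to 5 for BAP, 13 to 14 for ABA, 0 to 1 for ACC, 1 to 1 for SA and 4 to 7 for JA. For a hormone against the controls, only its own arrays and the control arrays were left out. Against the other hormones only its own arrays were left out, and between control sets only control arrays. Fewer arrays enter those fits, and the share of all probe sets that passed shifted as well. The cause of the other shifts was not tested. With the replicate number as a replicate block, 2, 0, 17, 0, 1 and 3 members were called for IAA, BAP, ABA, ACC, SA and JA. In the same order 3.94%, 1.17%, 47.9%, 0.494%, 9.02% and 5.88% of all probe sets passed. The replicate numbers were not taken to pair arrays. The replicate difference correlated above 0.1 in 10 of 28 pairs of groups (r from -0.185 to 0.446, median 0.036).

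Of 18 changes of named members that passed, 9 also passed under every alternative tried: the ABA changes of OsC3H10, OsC3H23, OsC3H35, OsC3H37, OsC3H9, OsC3H30 and OsC3H2, the JA change of OsC3H23, and OsC3H22 between control sets. The other 9 lost the call under at least 1 alternative, and 0 of the 18 changed direction. All alternatives reuse the same arrays, and OsC3H10 passed the floor only through its ABA arrays, so these passes are not separate support.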
